A study of Mus musculus with 12 samples.

Results

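The Rab, Vps and sorting nexin (Snx) genes were followed in mouse oocytes, with and without the nuclear RNA helicase MTR4, at 2 stages of growth. They were taken as every gene symbol that begins with Rab, Vps or Snx followed by a digit, which gave 127 of the 23235 symbols in the table: 67 Rab, 30 Vps and 30 Snx symbols. The symbol rule used no measured value. Poly(A) RNA came from ovarian oocytes of WT and Mtr4-null females, as growing oocytes at day 14 and as germinal vesicle (GV) oocytes at day 21. The labels list 12 Smart-seq2 libraries of 10 oocytes each, 3 in each of the 4 groups, while the design text speaks of duplicates. How MTR4 was removed, and from which cells, the sources used here do not say. Each value is an FPKM (fragments per kilobase of transcript, scaled to sequenced fragments), deposited as 1 authors' mean per group, so no value has a replicate error, no difference could be tested and library depth is unknown.

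Rab proteins are small GTPases that mark membranes. In the GTP-bound form they recruit effectors that move, tether and fuse vesicles, and exchange factors and GTPase-activating proteins switch them on and off. Vps (vacuolar protein sorting) proteins form complexes that sort cargo between Golgi, endosome and lysosome, among them retromer, CORVET and HOPS, ESCRT, and GARP. Sorting nexins carry a PX domain that binds phosphoinositides on endosomes, and some add a membrane-bending BAR domain. A growing oocyte uses this machinery to take up material, to secrete its zona pellucida and growth factors, and to supply membrane to an expanding cell surface.

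Summed FPKM of the whole table lay between 595721 and 649983 in the 4 groups. Skiv2l2, the older symbol of the gene for MTR4, stood at 27.6 FPKM in WT against 1.57 in Mtr4-null oocytes at day 14, and at 26.3 and 3.86 FPKM at day 21. All 10 oocyte markers examined were above 1 FPKM in every group, with sums of 11458 to 19269 FPKM. The 10 granulosa markers summed to 15.2 to 31.9 FPKM, and 11 markers of theca, stroma, endothelium and blood to 3.10 to 21.6 FPKM. Both of these sums were lower in Mtr4-null than in WT oocytes at day 21 (18.4 and 31.9 FPKM for granulosa markers). They rest largely on single markers, so their direction is not that of each list as a whole. In WT at day 21, Cyp19a1 held 25.3 FPKM of the granulosa sum and Pecam1 20.7 FPKM of the other. In Mtr4-null oocytes the largest granulosa marker was instead Inha, at 10.9 FPKM. The part of other cells in the results was not tested. The day 21 Mtr4-null column is written differently from the others. Repeating final digits of 3 or 6, as a mean of 3 values gives, occur in 38.8% to 40.4% of nonzero values elsewhere and in 0.018% there, so that mean may rest on fewer libraries than listed. FPKM also cannot tell less of one RNA per oocyte from more of all the others.

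Many genes of lysosomes and endosomes are known to carry a CLEAR element, the DNA motif bound by the transcription factor TFEB. The core of that element, TCACGTGA, which reads the same on both strands and contains the shorter E-box CACGTG, was looked for in RefSeq promoters of GRCm38.p6, from 250 bases before to 50 bases after each start. Promoters were found for 96 of the 127 genes. The core was present in 6 of them, or 6.25%, and in 1.12% of all 27025 genes with a promoter in that table. Among genes averaging 1 FPKM or more the shares were 7.41% of 81 and 2.19% of 9396. The core contains a CG, and the median promoter held 23 CG in the 96 genes and 7 in all 27025. The part of CG content in these shares was not tested. The carriers were Rab5a, Rab21, Rab24, Vps16, Vps26a and Vps33a. The promoters of the 4 that differed 2-fold at day 21 are shown. Rab5a and Rab24 were higher and Vps26a and Vps16 lower in Mtr4-null than in WT oocytes. Of all genes averaging 1 FPKM or more, 20.2% were 2-fold higher and 25.7% lower at that age. Vps16 did not stay 2-fold lower under median-of-ratios scaling, at -0.74 on the log2 scale. Any part of the core in these differences was not tested. The Rab33b promoter is shown because its gene had the greatest difference of the measured Rab, Vps and Snx genes at day 21. Capitals mark the core in the first 4 and, in Rab33b, TGCGCA, a half-site of the NRF1 element.
Rab5a, GRCm38.p6 chr17:53478984-53479283, plus strand: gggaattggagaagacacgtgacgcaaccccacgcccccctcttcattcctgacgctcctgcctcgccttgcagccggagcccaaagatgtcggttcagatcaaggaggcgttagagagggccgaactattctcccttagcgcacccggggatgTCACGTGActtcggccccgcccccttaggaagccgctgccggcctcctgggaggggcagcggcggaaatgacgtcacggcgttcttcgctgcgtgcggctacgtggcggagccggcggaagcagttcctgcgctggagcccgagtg
Rab24, GRCm38.p6 chr13:55321931-55322230, minus strand: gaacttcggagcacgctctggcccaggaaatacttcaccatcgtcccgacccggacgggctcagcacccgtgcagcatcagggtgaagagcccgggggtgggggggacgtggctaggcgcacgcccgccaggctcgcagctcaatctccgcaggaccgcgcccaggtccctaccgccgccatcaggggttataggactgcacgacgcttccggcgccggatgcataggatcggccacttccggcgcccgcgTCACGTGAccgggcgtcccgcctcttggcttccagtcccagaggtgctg
Vps26a, GRCm38.p6 chr10:62486756-62487055, minus strand: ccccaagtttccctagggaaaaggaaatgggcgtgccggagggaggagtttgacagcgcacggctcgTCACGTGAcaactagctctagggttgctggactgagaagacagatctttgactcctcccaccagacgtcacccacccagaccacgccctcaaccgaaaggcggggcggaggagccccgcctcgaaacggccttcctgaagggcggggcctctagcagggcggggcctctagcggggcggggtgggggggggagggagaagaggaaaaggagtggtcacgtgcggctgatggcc
Vps16, GRCm38.p6 chr2:130424070-130424369, plus strand: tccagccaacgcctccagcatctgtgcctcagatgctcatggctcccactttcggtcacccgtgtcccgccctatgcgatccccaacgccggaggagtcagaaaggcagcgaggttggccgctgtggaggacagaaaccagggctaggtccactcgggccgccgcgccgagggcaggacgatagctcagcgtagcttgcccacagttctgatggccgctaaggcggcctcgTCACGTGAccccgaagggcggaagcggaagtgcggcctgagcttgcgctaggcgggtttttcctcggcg
Rab33b, GRCm38.p6 chr3:51483716-51484015, plus strand: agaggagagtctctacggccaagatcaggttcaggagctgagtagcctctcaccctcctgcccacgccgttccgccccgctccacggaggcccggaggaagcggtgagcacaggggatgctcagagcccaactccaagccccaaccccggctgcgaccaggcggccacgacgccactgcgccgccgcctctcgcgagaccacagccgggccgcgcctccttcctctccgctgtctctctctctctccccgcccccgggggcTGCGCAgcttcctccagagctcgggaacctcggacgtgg
The core begins 96 bases before the start in Rab5a, 183 in Vps26a and 19 in Vps16, and 1 base after the start in Rab24. The other two carriers did not differ 2-fold at day 21. Other motifs were searched on both strands too. Among the 81 and 9396 promoters of genes averaging 1 FPKM or more, CACGTG was present in 17.3% and 11.7%, TGCGCA in 18.5% and 16.6%, CCAAT in 43.2% and 43.8%, and TATAAA in 7.41% and 9.12%. The last 3 were thus about as frequent here as in other expressed genes. A match describes the letters only, and these motifs were chosen with the values known.

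In WT oocytes at day 14 the most abundant of the 127 transcripts were those of Rab7, Rab38, Rab11a, Vps26a and Rab14. Rab7, the master GTPase of late endosomes, stood at 323 FPKM at day 14 and 379 FPKM at day 21. Rab38, known for lysosome-related organelles such as melanosomes, stood at 251 and 219 FPKM, and Rab11a, of recycling endosomes, at 231 and 236 FPKM. Vps26a, an arrestin-like subunit of retromer, stood at 210 and 170 FPKM, and Rab14 at 148 and 174 FPKM. Together these 5 made up 32.3% of the 3603 FPKM that the 127 genes summed to at day 14, and the 127 genes made up 0.601% of the table. The leading Vps genes after Vps26a were Vps29 at 127 FPKM and Vps25 at 107 FPKM at day 14, and the leading Snx genes were Snx3 at 132, Snx6 at 96.9 and Snx2 at 82.3 FPKM. The median gene stood at 10.5 FPKM, and 4 of the 127 were listed at 0.

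Of the 127 genes, 103 averaged 1 FPKM or more across all groups (50 Rab, 27 Vps and 26 Snx), and comparisons below are of these. The other 24 had means from 0.00296 to 0.886 FPKM, and include Rab3c, Rab27b, Rab6b, Rab9b, Rab26, Rab33a, Vps13c, Vps37d and Snx33. The most abundant of them were Rab37, Rab36 and Snx21. That filter takes all groups together, so a gene that was low in WT, such as Rab34, could pass through its Mtr4-null level. Differences are given on the log2(FPKM + 1) scale, which understates the fold of low genes. Genes called higher or lower differ by 2-fold or more on it, a rule of size and not a test.

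Between day 14 and day 21, WT levels of these genes were close. None was 2-fold higher at day 21, beside 2.02% of all 11913 genes that passed the filter, and 3 or 2.91% were lower, beside 3.32%. Their median difference was -0.036, and that of all genes -0.0044. Rab31, which acts between the trans-Golgi network and endosomes, stood at 20.3 FPKM at day 14 and 6.12 FPKM at day 21. Rab11b, the less abundant paralog of Rab11a, stood at 16.0 and 6.91 FPKM. It has 2 annotated pseudogenes, and its exons overlap Gm17251 on the opposite strand, so its value is uncertain to that extent. Rab30, a Golgi Rab, stood at 3.18 and 0.952 FPKM. Vps37b, an ESCRT-I subunit, came nearest to 2-fold in the other direction, at 7.35 and 15.2 FPKM.

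Loss of MTR4 was compared first in growing oocytes at day 14, where 4 of the 103 genes were higher and none lower. These are 3.88% and 0%, beside 8.10% and 1.55% of all genes. Rab33b, a Golgi GTPase that also binds the autophagy protein ATG16L1, stood at 12.8 FPKM in WT against 107 in Mtr4-null oocytes, 8.36-fold apart. Snx20, which binds the adhesion molecule PSGL-1 in leukocytes, stood at 0.201 and 3.06 FPKM. Snx29 stood at 2.78 and 7.66 FPKM, and Rab11fip1, an effector of Rab11 in recycling, at 2.94 and 8.02 FPKM. Under quantile normalization Rab33b and Snx20 were 2-fold higher and the other two were not, beside 5.94% of all genes. The median difference of the 103 genes was 0.057 and that of all genes 0.052. Under median-of-ratios scaling these were -0.031 and -0.030, so the sign depends on scaling, and the genes stayed beside the table as a whole. Among genes below 2-fold, Rab7 had the lowest difference, at 323 and 212 FPKM.

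**Figure D1:**
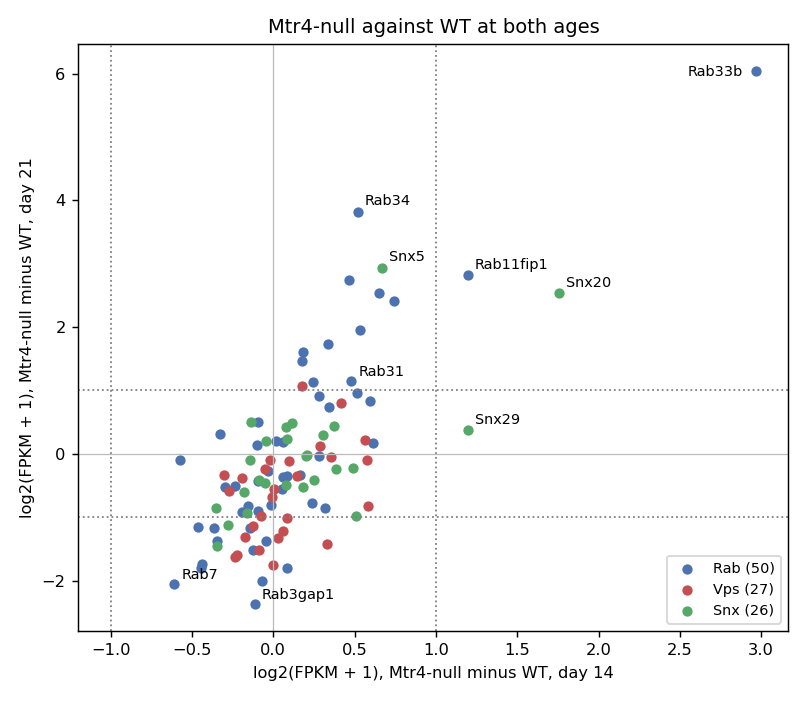
Difference between Mtr4-null and WT oocytes on the log2(FPKM + 1) scale at day 14 (horizontal axis) and day 21 (vertical axis), 1 point per gene for the 103 genes with a mean of at least 1 FPKM. Dotted lines mark a 2-fold difference. Rab33b lies far up and to the right, and most other points spread along the vertical axis within 2-fold at day 14.

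In GV oocytes at day 21 the genes differed in both directions. Of the 103, 15 were higher and 24 lower in Mtr4-null than in WT oocytes, or 14.6% and 23.3%, beside 20.2% and 25.7% of all genes. The median difference was -0.34, and that of all genes -0.27. The counts thus lie near those of the table, and what follows describes which genes differed. Counts by role below rest on few genes each, with roles assigned after the values were seen. By family, 12 Rab genes were higher and 12 lower of 50, 1 Vps gene was higher and 10 lower of 27, and 2 Snx genes were higher and 2 lower of 26. The family medians were -0.30, -0.58 and -0.16. Median-of-ratios scaling shifts the all-gene median at this age by more than 0.1, from -0.27 to near 0. With it 20 genes were higher and 17 lower, beside 24.3% and 18.1% of all genes, and the family counts were 16 and 9 for Rab, 2 and 7 for Vps and 2 and 1 for Snx. All 39 genes kept their sign under both other scalings tried. Those that were no longer 2-fold lower under the former were Rab2a, Rab10, Rab14, Snx16, Vps16, Vps35 and Vps53. Quantile normalization took Rab2a, Snx16 and Vps35 from the lower genes and Rab11fip2 from the higher ones, beside 19.8% of all genes higher and 25.6% lower.

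**Figure D2:**
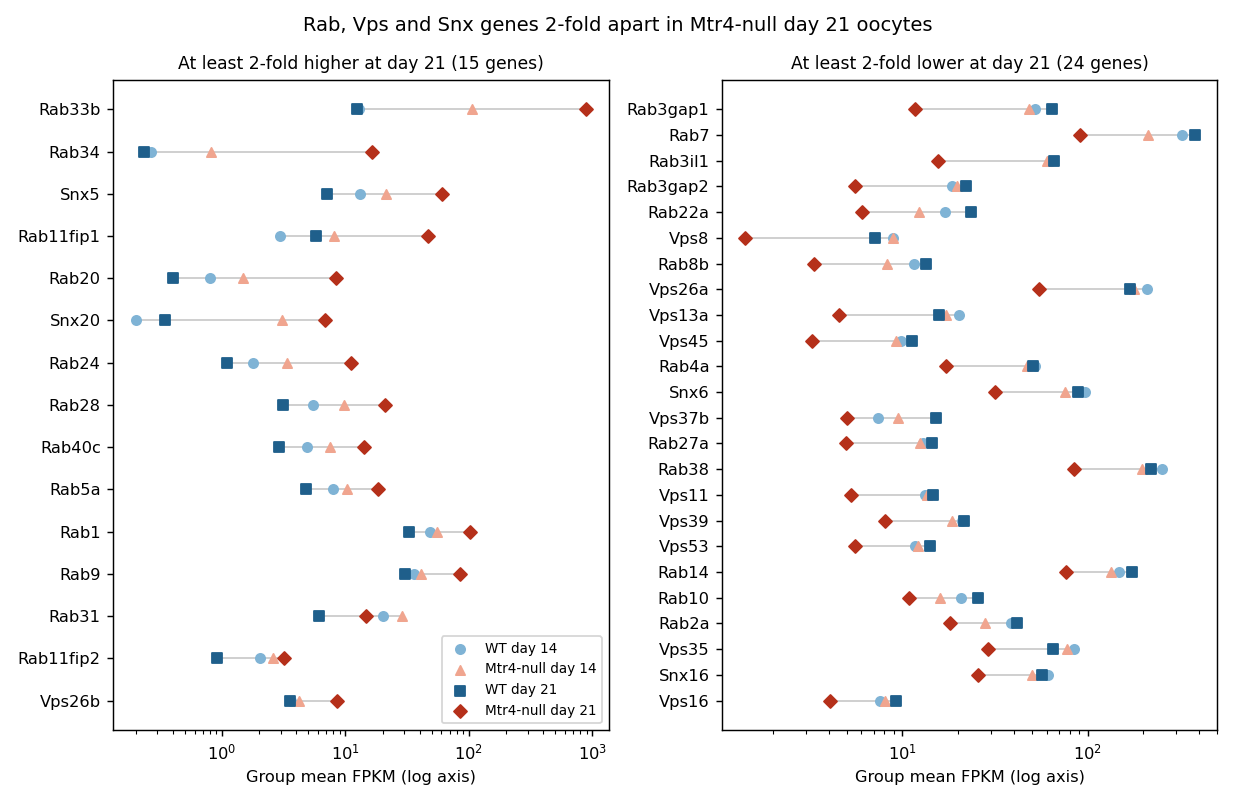
Group mean FPKM on a log axis for the 15 genes at least 2-fold higher (left) and the 24 at least 2-fold lower (right) in Mtr4-null than in WT oocytes at day 21, ordered by the size of the difference, with 1 point per group and no error bars because only means were given. Among the lower genes the Mtr4-null day 21 point lies left of the other groups.

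Rab GTPases of early and recycling endosomes divided into 3 higher and 3 lower of 14 measured, beside 20.2% and 25.7% of all genes. Rab5a, which with its paralogs drives fusion of early endosomes, stood at 4.78 FPKM in WT against 18.3 in Mtr4-null oocytes at day 21, and at 7.94 and 10.3 FPKM at day 14. An annotated pseudogene, Rab5a-ps, may share its reads. Rab20, linked to endosome and phagosome maturation, stood at 0.404 and 8.35 FPKM at day 21, and Rab31 at 6.12 and 14.7 FPKM. The last of these was among the 3 genes that were lower with age in WT, and its Mtr4-null level lay nearer to the 20.3 FPKM of WT day 14. On the lower side, Rab22a, which sorts cargo from early endosomes, stood at 23.4 and 6.02 FPKM. Rab4a, of fast recycling, stood at 50.9 and 17.2 FPKM, and Rab14, which acts between Golgi and endosomes, at 174 and 76.3 FPKM. Rab11a was within 2-fold, at 236 and 133 FPKM, as were Rab35 at 21.4 and 24.7 FPKM and Rab21 at 60.0 and 41.7 FPKM.

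The late endosomal and lysosomal Rabs split by gene. Rab7 was the most abundant of the 127 in the other groups but stood at 90.6 FPKM in Mtr4-null GV oocytes, against 379 FPKM in WT, a 4.19-fold lower value. Its exons overlap those of Gm5577 on the opposite strand, listed at 1.14 FPKM in WT against 17.6 in Mtr4-null oocytes. A pseudogene, Rab7-ps1, is annotated too, so Rab7 values are uncertain to that extent. Rab38 stood at 219 and 83.9 FPKM, while its close relative Rab32 stood at 43.0 and 35.4 FPKM. By contrast, Rab9, which returns mannose 6-phosphate receptors from late endosomes to the Golgi, stood at 30.1 FPKM in WT against 85.2 in Mtr4-null oocytes. Rab24, linked to autophagy, stood at 1.10 and 11.2 FPKM, and shares exonic sequence with Prelid1 on the opposite strand, at 58.2 and 76.1 FPKM. Rab7 and Rab9, far apart in WT, were thus close to level in Mtr4-null oocytes.

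Among Rabs of the endoplasmic reticulum (ER) and Golgi, 2 were higher and 1 lower of 8 measured, beside 20.2% and 25.7% of all genes. Rab33b reached 892 FPKM without MTR4 at day 21 against 12.5 FPKM in WT, 71.3-fold apart, and made up 27.2% of the FPKM of all 127 genes there, against 0.352% in WT. With it, the 127 genes summed to 0.506% of the table in Mtr4-null and 0.589% in WT oocytes. Without it the shares were 0.368% and 0.587%. Levels of the adjacent genes were far lower: Naa15, upstream on the same strand, stood at 6.66 and 10.8 FPKM, and Setd7, downstream on the opposite strand, at 0.00386 and 0.0691 FPKM. The antisense gene Gm38160 overlaps its exons. Rab1, now named Rab1a, which drives transport from ER to Golgi, stood at 32.8 and 102 FPKM. Rab2a, which acts in Golgi retrieval and late endosome fusion, stood at 41.5 and 18.1 FPKM. Rab1b at 43.2 and 24.3 FPKM, Rab6a at 60.7 and 35.03 FPKM and Rab18, of ER and lipid droplets, at 68.1 and 52.8 FPKM were within 2-fold. Exons of Rab6a overlap those of Mrpl48 on the opposite strand, at 398 and 106 FPKM, so Rab6a values are uncertain to that extent.

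Rabs of secretory vesicles were lower or within 2-fold, with 3 lower and none higher of 8 measured, beside 25.7% and 20.2% of all genes. Their median was -0.91, beside -0.27. Rab27a, which docks secretory granules, stood at 14.5 FPKM in WT against 4.96 in Mtr4-null oocytes. Rab8b stood at 13.5 and 3.32 FPKM and Rab10 at 25.5 and 10.8 FPKM, both Rabs of transport from Golgi to plasma membrane. Rab8a at 38.7 and 20.2 FPKM and Rab3d at 79.6 and 62.5 FPKM were within 2-fold. Rab3a was the one secretory Rab with a higher value in Mtr4-null oocytes, at 19.7 and 33.7 FPKM, and it exceeded 2-fold under median-of-ratios scaling. The Rabs of other roles included 3 higher among 6 measured, beside 20.2% of all genes. Rab34, linked to cilia and lysosome positioning, stood at 0.232 and 16.3 FPKM, and at 0.265 and 0.811 FPKM at day 14. Rab28, of cilia, stood at 3.15 and 21.1 FPKM at day 21, and Rab40c, whose SOCS box joins it to a ubiquitin ligase, at 2.90 and 14.2 FPKM.

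Of the 4 lowest differences among the 103 genes, 3 belonged to Rab regulators and the other to Rab7. Rab3gap1 and Rab3gap2 encode the subunits of 1 complex, which inactivates Rab3 and activates Rab18, and both were lower at day 21. Rab3gap1 stood at 52.2 FPKM in WT against 48.2 in Mtr4-null oocytes at day 14, and at 64.4 and 11.6 FPKM at day 21, 5.53-fold apart. Rab3gap2 stood at 18.5 and 19.7 FPKM, then at 21.9 and 5.58 FPKM. Rab3il1, an exchange factor for Rab8, stood at 63.6 and 60.4 FPKM, then at 65.8 and 15.6 FPKM. The related exchange factor Rab3ip was level at day 21, at 19.2 and 18.7 FPKM. Among Rab11 effectors, Rab11fip1 stood at 5.76 and 46.9 FPKM at day 21 and Rab11fip2 at 0.910 and 3.20 FPKM, whereas Rab11fip3 and Rab11fip5 were within 2-fold.

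**Figure D3:**
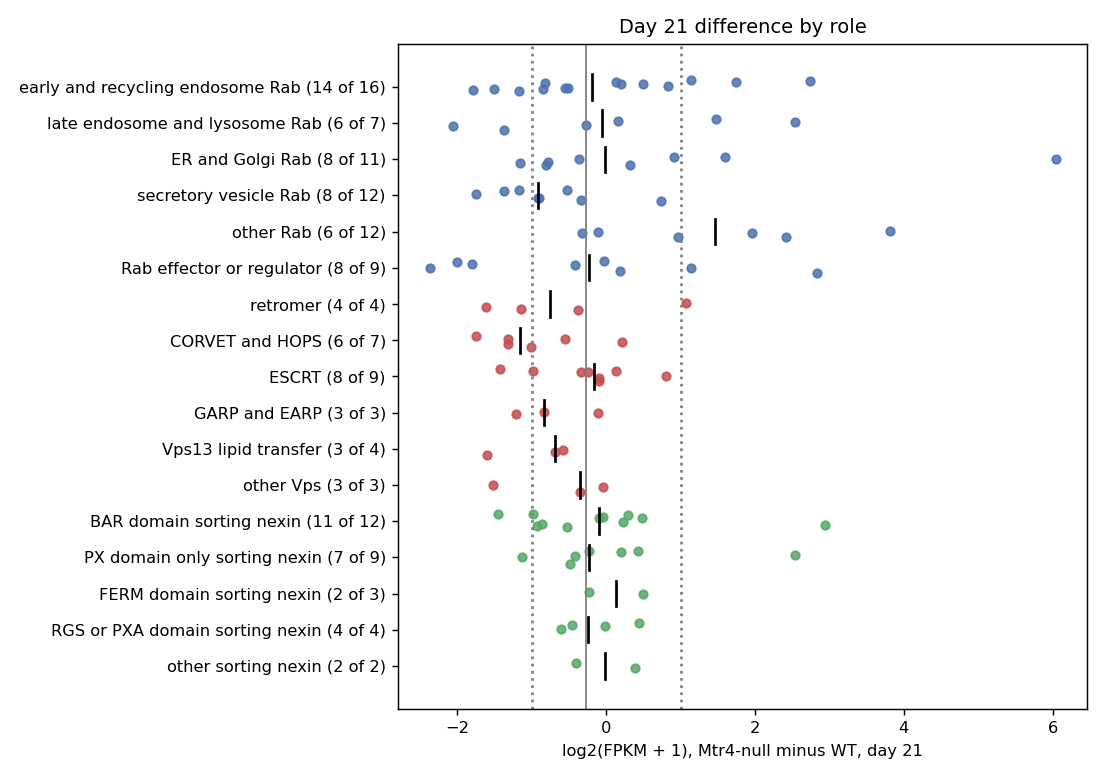
Difference between Mtr4-null and WT oocytes at day 21 on the log2(FPKM + 1) scale for the 103 genes, by role, with 1 point per gene, coloured by family. Short black bars are medians of a role, the grey line is the median of all genes at -0.27, dotted lines mark 2-fold, and counts give measured of all genes in a role. CORVET and HOPS and the secretory Rabs lie mostly left of the grey line, and Rab33b at 6.05 lies apart on the right.

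Retromer returns receptors from endosomes to the Golgi and plasma membrane, and its genes differed in both directions. Vps35, the scaffold, stood at 65.2 FPKM in WT against 29.0 in Mtr4-null oocytes at day 21. Its exons overlap those of Orc6 on the opposite strand, at 111 and 170 FPKM. Vps26a stood at 170 and 54.7 FPKM, while the alternative subunit Vps26b stood at 3.57 and 8.62 FPKM. Vps29, the third subunit, was within 2-fold, at 129.99 and 100.04 FPKM. At day 14 none of these differed 2-fold.

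CORVET and HOPS tether early and late endosomes respectively, sharing a core of Vps11, Vps16, Vps18 and Vps33a. Of 6 measured subunits, 4 were lower and none higher at day 21, beside 25.7% and 20.2% of all genes. Their median was -1.16, beside -0.27. Vps8, particular to CORVET, stood at 8.89 and 8.88 FPKM at day 14 and at 7.13 and 1.41 FPKM at day 21. Vps39, of HOPS, stood at 21.5 and 8.03 FPKM at day 21, and the core subunits Vps11 at 14.7 and 5.27 FPKM and Vps16 at 9.24 and 4.08 FPKM. Vps41, also of HOPS, was within 2-fold at 22.9 and 15.2 FPKM, and Vps33a stood at 1.33 and 1.71 FPKM. Vps18 did not pass the filter, at 0.191 and 0.995 FPKM. Under median-of-ratios scaling 3 of the 6 were lower, beside 18.1% of all genes.

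ESCRT complexes bud vesicles into endosomes and cut membrane necks. At day 21, 1 of 8 measured subunits was lower, beside 25.7% of all genes. This was Vps37b, at 15.2 and 5.03 FPKM, while its paralogs Vps37a at 11.9 and 13.1 FPKM and Vps37c at 17.9 and 16.7 FPKM were close. Vps28 of ESCRT-I stood at 23.1 and 18.1 FPKM, and Vps25 and Vps36 of ESCRT-II at 105 and 88.7 FPKM and at 4.37 and 4.03 FPKM. The ATPases that recycle ESCRT-III pointed opposite ways within 2-fold, with Vps4a at 65.3 and 32.6 FPKM and Vps4b at 19.1 and 34.1 FPKM. Of the GARP and EARP subunits, which tether vesicles arriving from endosomes, Vps53 stood at 14.2 and 5.54 FPKM, Vps52 at 10.5 and 5.45 FPKM and Vps54 at 5.51 and 5.02 FPKM. Exons of Vps52 overlap those of Rps18 on the opposite strand, at 326 and 581 FPKM. Vps13a, a bridge-like lipid transfer protein, stood at 15.7 and 4.52 FPKM. Vps45, which assists SNARE assembly on endosomes, stood at 11.2 and 3.27 FPKM. Vps72 carries a Vps symbol but encodes a chromatin protein that handles histone H2A.Z. It stood at 66.0 and 51.7 FPKM.

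**Figure D4:**
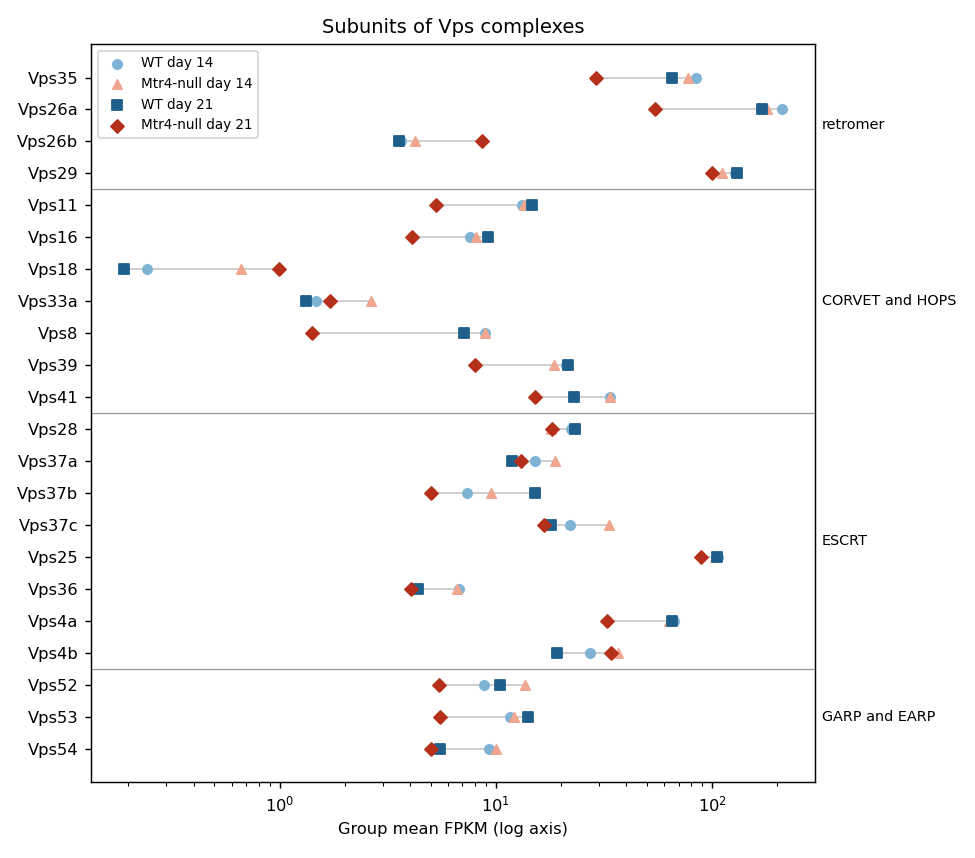
Group mean FPKM on a log axis for 22 subunits of retromer, CORVET and HOPS, ESCRT, and GARP and EARP, with 1 point per group and no error bars. In CORVET and HOPS the Mtr4-null day 21 point is the lowest of the 4 for Vps8, Vps11, Vps16, Vps39 and Vps41, whereas for Vps26b and Vps18 it is the highest.

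Of 26 measured sorting nexins, 22 were within 2-fold at day 21. The others were 2 higher and 2 lower, beside 20.2% and 25.7% of all genes. Snx5 and Snx6 are BAR domain partners of Snx1 and Snx2 in endosomal tubules, and they differed in opposite directions. Snx5 stood at 13.0 FPKM in WT against 21.2 in Mtr4-null oocytes at day 14, and at 7.08 and 60.9 FPKM at day 21. An intron of Snx5 encodes the small nucleolar RNA Snord17, which the table lists at 0.656 and 10.6 FPKM at day 14 and at 0.594 and 65.8 FPKM at day 21. Its part in the Snx5 value was not tested. Snx6 stood at 96.9 and 75.9 FPKM, then at 89.2 and 31.8 FPKM. Snx1 at 10.0 and 9.69 FPKM and Snx2 at 59.0 and 69.2 FPKM were near level at day 21. Snx20 stood at 0.346 and 6.83 FPKM, and Snx16, which binds early endosomes, at 56.7 and 25.4 FPKM. Snx3, a PX-only adaptor of retromer, stood at 115 and 85.9 FPKM, and Snx17, an adaptor of integrin and LDL receptor family recycling, at 32.4 and 27.4 FPKM. Snx29, higher at day 14, stood at 3.35 and 4.66 FPKM. Snx8, a BAR nexin, stood at 7.39 and 3.23 FPKM, just within 2-fold on the log scale.

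The make-up of 8 of 19 paralog sets is given, chosen with the values known because their make-up differed. Some sets outside these 8 differed at day 21 too. Vps37b held 33.8% of the Vps37 sum in WT against 14.5%, and Rab3a 16.7% of the Rab3 sum against 31.8%. Rab32 held 16.4% of its sum with Rab38 against 29.7%, and Vps13a 78.7% of the Vps13 sum against 67.2%. The make-up was close in Snx1 with Snx2 (Snx1 at 14.5% in WT against 12.3%), Snx3 with Snx12 (Snx3 at 76.2% against 77.2%) and Snx9 with Snx18 and Snx33 (Snx9 at 70.02% against 69.5%). A share within a set is not altered by scaling a whole column. The 3 Rab5 genes summed to 61.8 FPKM in WT against 65.1 in Mtr4-null oocytes at day 21, but Rab5a held 7.73% of that in WT and 28.1% in Mtr4-null oocytes, and Rab5c 72.7% and 37.7%. In the same way Snx5, Snx6 and Snx32 summed to 98.1 and 94.4 FPKM, with Snx5 at 7.22% and 64.5% of the sum. In the deposited FPKM the sums of these 2 sets were thus nearly level while their make-up was not. Unlike the shares, such sums depend on how each column is scaled. Rab1 held 43.2% of the Rab1 and Rab1b sum in WT and 80.7% in Mtr4-null oocytes. Rab31 held 20.8% and 71.0% of its sum with Rab22a. Vps4b held 22.7% and 51.1% of its sum with Vps4a, Vps26b 2.06% and 13.6% of its sum with Vps26a, Rab2b 4.93% and 21.5% with Rab2a, and Rab4b 30.2% and 46.1% with Rab4a. At day 14 the shares were closer between genotypes, such as 12.1% and 11.5% for Rab5a and 53.0% and 56.4% for Rab1. With Rab31, 54.5% and 70.1% were reached there. WT at day 14 and at day 21 differed too, with Rab31 at 54.5% and 20.8% and Rab5c at 51.9% and 72.7%.

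**Figure D5:**
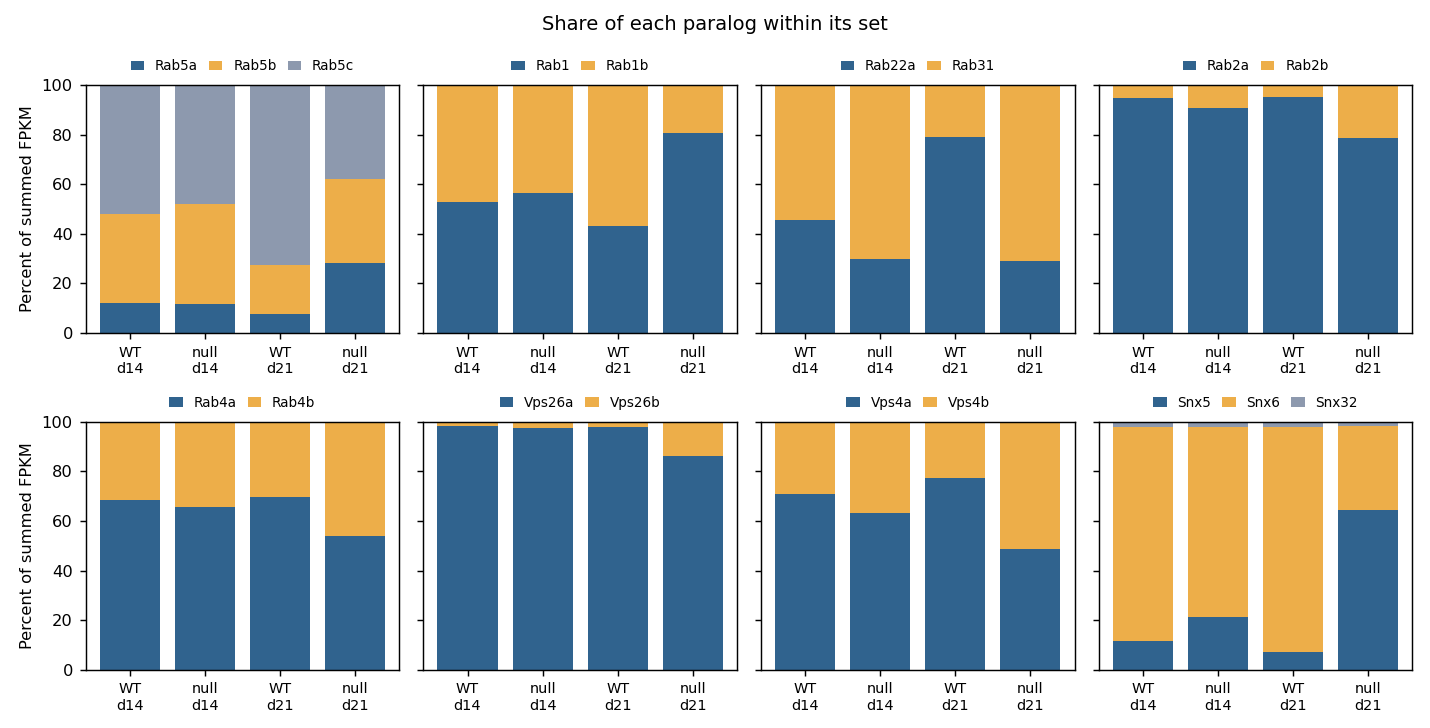
Share of each paralog in the summed FPKM of its set, in percent, for WT and Mtr4-null (null) oocytes at day 14 (d14) and day 21 (d21). In Mtr4-null oocytes at day 21 the lower segment of Rab5a, Rab1 and Snx5 is the tallest of the 4 bars, at 28.1%, 80.7% and 64.5%.

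Between day 14 and day 21 the Mtr4-null means lay further apart than those of WT. Of the 103 genes, 8 were higher at day 21 and 20 lower, or 7.77% and 19.4%, beside 9.08% and 18.6% of all genes, with medians of -0.49 and -0.30. The largest higher value was that of Rab34, from 0.811 to 16.3 FPKM, then Rab33b, from 107 to 892 FPKM, and Rab11fip1, from 8.02 to 46.9 FPKM. On the lower side Vps8 went from 8.88 to 1.41 FPKM, Rab3gap1 from 48.2 to 11.6 FPKM and Rab3il1 from 60.4 to 15.6 FPKM. With median-of-ratios scaling the counts were 14 higher and 6 lower, beside 15.2% and 8.76% of all genes, and with quantile normalization 14 and 13, beside 12.4% and 13.4%, so the balance of this comparison rests on the scaling. These Mtr4-null means also enter the genotype comparisons above. The change in the genotype difference from day 14 to day 21 had a median of -0.40, and of -0.31 over all genes.

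The genotype comparisons at the 2 ages share no library. In the deposited FPKM, all 15 genes that were higher at day 21 had a value above 0 at day 14, as did 94.7% of all genes that were higher. Of the 24 lower ones, 19 or 79.2% had a value below 0, as did 79.0% of all lower genes. Signs near 0 depend on scaling. Under quantile normalization Rab11fip2 and Vps26b, of the 15, lay below 0 at day 14, at -0.036 and -0.075. Under median-of-ratios scaling Rab3gap2, Vps11, Vps16 and Vps53, of the 24, moved from above to below 0. Rab34, Rab20 and Snx20, of the 15, passed the filter through their Mtr4-null level. At day 14 the medians of these 15 and 24 genes were 0.52 and -0.13, and at day 21 they were 2.41 and -1.44. Across the 103 genes Spearman's rho between both differences was 0.65, and 0.69 across all genes. Genes are not independent replicates, and these are descriptions.

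Genes were also grouped by their WT level at day 14. Of 19 genes with at least 50 FPKM, 10 were lower and none higher at day 21, or 52.6% and 0%, beside 34.3% and 4.18% of all genes at that level. Under median-of-ratios scaling 36.8% of the 19 were lower, beside 23.4%. Of 59 genes from 5 to 50 FPKM, 7 were higher and 14 lower, or 11.9% and 23.7%, beside 14.5% and 30.9%. For genes under 5 FPKM no count is given, because some of them, such as Rab34, Rab20 and Snx20, passed the filter through their Mtr4-null level. Gene models of GENCODE vM21 gave a median of 6 merged exons for the 15 higher genes, 11.5 for the 24 lower and 9 for the rest, and of 5, 12 and 9 for all genes of the same directions. Over the 103 genes, rho of the day 21 difference was -0.33 with exon number and -0.042 with exonic length. Over the 11715 of all genes with a model it was -0.31 and -0.16. Rab34, Rab20 and Snx20 are among the 15 higher genes, so these medians and rho values carry the same limit of the filter. In all, 43 of the 103 have exons that overlap those of another gene. Smart-seq2 does not keep the strand, so reads there cannot be assigned to 1 gene.

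Other genes of the pathway were taken from 5 lists, chosen with earlier results of these data known. Of 51 measured genes that load, prenylate or switch Rabs, 8 or 15.7% were higher and 14 or 27.5% lower at day 21, beside 20.2% and 25.7% of all genes, and 6 or 11.8% were higher at day 14, beside 8.10%. Rin1, an exchange factor for Rab5, stood at 1.19 FPKM in WT against 167 in Mtr4-null oocytes at day 21, Tbc1d24 at 0.900 and 140 FPKM and Dennd5b at 5.08 and 249 FPKM. Among 26 endosomal PI3P and tethering genes 1 or 3.85% was higher and 8 or 30.8% lower. Ankfy1, an effector of Rab5, stood at 10.8 and 101 FPKM at day 14 and at 10.8 and 731 FPKM at day 21. The Rab5 tether gene Eea1 stood at 16.3 and 3.94 FPKM at day 21, Uvrag at 50.8 and 14.7 FPKM and Ehd3 at 7.24 and 1.43 FPKM.

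Of 19 ESCRT genes without a Vps symbol, 4 or 21.1% were higher and 5 or 26.3% lower at day 21, beside the same 20.2% and 25.7% of all genes. Chmp6 stood at 1.08 FPKM in WT against 13.6 in Mtr4-null oocytes and Chmp1b at 11.1 and 46.4 FPKM, both of ESCRT-III, while Hgs of ESCRT-0 stood at 51.9 and 16.4 FPKM and Chmp2a at 99.7 and 34.2 FPKM. Of 14 partners of the WASH and retriever complexes, which sort cargo beside retromer, 4 or 28.6% were higher and 2 or 14.3% lower, with Commd7 at 5.86 and 299 FPKM, Ccdc53 at 12.1 and 58.8 FPKM, Commd5 at 6.59 and 32.4 FPKM and Dscr3 at 12.1 and 40.2 FPKM. Of 41 vesicle coat genes 2 or 4.88% were higher and 13 or 31.7% lower. The named ones were all adaptor or clathrin genes with lower values, namely Ap1b1 at 50.7 and 10.2 FPKM, Ap3b1 at 20.5 and 4.21 FPKM, Cltb at 122 and 34.4 FPKM and Ap1m2 at 98.0 and 29.1 FPKM. Medians at day 21 were -0.28, -0.56, -0.55, 0.17 and -0.59 for the 5 lists in this order, beside -0.27 for all genes. Under median-of-ratios scaling the lower counts were 7, 7, 2, 1 and 6 and the higher counts 10, 3, 4, 5 and 2. As shares, 13.7%, 26.9%, 10.5%, 7.14% and 14.6% were then lower, beside 18.1% of all genes. Higher were 19.6%, 11.5%, 21.1%, 35.7% and 4.88%, beside 24.3% of all genes.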

How the data were processed

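Oocyte poly(A) RNA was measured by Smart-seq2. The genome build mm9 and the tools Cufflinks 2.2.1 and TopHat2 2.1.1 are named, without their roles, per the submitters' processing notes. The deposited values are FPKM, 1 mean per group made by the authors. Depth per library, and so counting precision, is unknown.

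Differences of log2(FPKM + 1) between group means were computed with Python 3.11.15 and pandas 2.3.3 for genes with a mean of at least 1 FPKM over the 4 groups. No test was possible on means. The arithmetic of the size rule was checked on a copy of a column multiplied by known folds. Alternatives were a pseudocount of 0.1, no filter, a minimum mean of 5 FPKM, median-of-ratios scaling and quantile normalization. Gene models (GENCODE vM21) and RefSeq promoters are of GRCm38, matched by symbol for all 127 genes and 96 of them, respectively. They are not of the authors' build, so coordinates are given for the promoters alone.

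The genes and lists were chosen with earlier results of these data known. Roles and paralog sets were assigned after the values were seen. Genes named are the most abundant 3 of each family, those 2-fold apart at day 14, per family up to 6 higher and 6 lower at day 21 and 3 of each with age among 2-fold differences with at least 5 FPKM in the higher group, all subunits of 4 Vps complexes, and up to 4 genes of each pathway list, of which one is not reported here. Others, such as paralogs, were added after their values were seen.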

Additional observations from a re-analysis of the deposited data

How the results depend on the processing

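With a size rule on means, the 13 counts and medians of the genes were recomputed under 5 alternatives. Of 65 values, 43 stayed within 1.5 times (counts) or within 0.1 with the same sign (medians). At day 14 the median reversed to -0.031 under median-of-ratios scaling and -0.095 under quantile normalization, and the higher count was 2 with a minimum mean of 5 FPKM and 2 under quantile normalization. At day 21 the median moved to -0.098 without the filter, -0.46 with a minimum of 5 FPKM, -0.026 under median-of-ratios scaling and -0.22 under quantile normalization. For WT with age, a pseudocount of 0.1 gave 1 higher gene. For Mtr4-null with age, the higher count was 5 with a minimum of 5 FPKM and 14 under either scaling, the lower count 6 under median-of-ratios scaling and 13 under quantile normalization, and the median -0.29, -0.60, -0.097 and -0.24 in the order given for day 21. The change in genotype difference was -0.23, -0.57, -0.033 and -0.19 in that order. Without the filter more genes near 0 enter, and with a minimum of 5 FPKM fewer genes. The cause of the other shifts was not tested. No paired analysis was possible because the table holds 1 mean per group and no column per library. Leaving out single libraries and a replicate block were not run for the same reason. Unknown depth limits all low values.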
